A study of Mus musculus with 12 samples.

Results

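The apelin and CXCL12 migration signals are 2 small ligand and receptor systems, represented here by 6 genes: the receptors Aplnr, Cxcr4 and Ackr3 and the ligands Apln, Apela and Cxcl12. They were chosen by name, through the Ensembl mouse gene identifiers in the count files, and all 6 were found among the 38924 genes listed. RNA was sequenced from 4 cell types sorted from mouse embryos at E7.25 of the line Foxa2Cre:Rosa26-YFP, in which Cre recombinase made under Foxa2 control switches on a yellow fluorescent protein (YFP) that stays on in the cells' descendants. All 12 libraries, 3 for each type, came from this line and stage, with no other allele or treatment named. The types were cardiac mesoderm that was Foxa2Cre:YFP+, which the labels call ventricular, cardiac mesoderm that was Foxa2Cre:YFP-, which they call non-ventricular, endoderm sorted as EPCAM+, and hematopoietic mesoderm sorted as KDR+. YFP reports that a cell or its ancestor once expressed Foxa2, not that Foxa2 is on, and the labels do not say how many embryos went into a library or whether replicates came from separate litters. The p-values below therefore measure only the spread between these libraries, which may be technical.

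Aplnr is a G protein-coupled receptor with a pair of peptide ligands, apelin (Apln) and Elabela (Apela, also called Toddler), and it couples mainly to inhibitory G proteins. Cxcr4 and Ackr3 both bind the chemokine CXCL12. Cxcr4 signals through inhibitory G proteins and drives directed cell movement, whereas Ackr3, formerly Cxcr7, does not signal through G proteins in the classical way, recruits arrestins and removes CXCL12 from the cell's surroundings. Both systems are known for guiding mesodermal and endodermal cells during gastrulation, and loss of Aplnr or Apela impairs early heart and vessel formation.

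Gene counts summed to between 4472800 and 7888631 per library, so that 3 counts stood for 0.380 to 0.671 CPM (counts scaled to the size of the library). Genes took 18.3% to 21.5% of the tallied reads. The sort markers matched the labels: Foxa2 was at 52.1 to 62.1 CPM in endoderm and at 0 to 5.90 CPM elsewhere, Epcam at 203 to 239 CPM against 1.04 to 68.6 CPM, and Kdr at 4.77 to 16.3 CPM in endoderm against 442 to 961 CPM in the 9 mesodermal libraries. Of the marker lists, the blood and endothelial genes summed to 1660 to 2977 CPM in hematopoietic mesoderm and to 47.1 to 472 CPM elsewhere. The visceral endoderm genes, markers of extraembryonic endoderm, summed to 2167 to 5872 CPM in the endoderm libraries, where all 10 had counts, and to 59.7 to 272 CPM elsewhere. Hematopoietic mesoderm replicate 3 stood apart: its blood and endothelial sum was 1660 CPM against 2672 and 2977 CPM, its cardiac mesoderm sum 1875 CPM against 954 and 1044 CPM, and its epiblast and primitive streak sum 1004 CPM against 381 and 280 CPM. Its extraembryonic ectoderm sum was 332 CPM against 49.5 and 28.1 CPM, with 336 to 487 CPM in the other types. Eomes is in both that list and the epiblast and primitive streak list, so that these sums are not independent. Eomes averaged 287 to 426 CPM in the other types and 113 ± 130 CPM (SD, n = 3) in hematopoietic mesoderm. Of the 6 extraembryonic ectoderm genes, 4 had counts in replicate 3, and Tfap2c and Cdx2 had none. The endoderm sum of replicate 3 was 279 CPM against 160 and 188 CPM. YFP+ cardiac mesoderm replicate 3 had an endoderm sum of 198 CPM, against 90.6 and 70.8 CPM in replicates 1 and 2. Foxa2 was at 5.90 CPM there, against 0.415 and 0 CPM. Replicates varied least in endoderm, with a biological coefficient of variation of 0.394, and most in hematopoietic mesoderm, at 1.15.

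The upstream sequences of 4 members are shown because the 2 CXCL12 receptors shared their order of mean levels across the types, from YFP+ cardiac mesoderm down to hematopoietic mesoderm, and the ligands Apln and Cxcl12 shared theirs, from endoderm down to YFP+ cardiac mesoderm. These are orders of means. Libraries overlapped between the mesodermal neighbours for both ligands and between most neighbours for the receptors. The place of hematopoietic mesoderm among the ligands rested on its replicate 2 (Apln 45.9 CPM against 6.48 and 0.628 CPM, Cxcl12 9.67 CPM against 0 and 0 CPM). Each sequence is the 250 bases before the RefSeq transcription start in GRCm38.p6, read 5′ to 3′ on the gene's own strand. The letters TATAAA, a core promoter element placed just before many start sites, are in capitals on either strand. The letters GGGCGG, a site type of the Sp1 family, are in capitals likewise. The windows lie at chr1:128592300-128592549 on the minus strand for Cxcr4, chr1:90203730-90203979 on the plus strand for Ackr3, chr6:117168285-117168534 on the plus strand for Cxcl12 and chrX:48034854-48035103 on the minus strand for Apln.
Cxcr4: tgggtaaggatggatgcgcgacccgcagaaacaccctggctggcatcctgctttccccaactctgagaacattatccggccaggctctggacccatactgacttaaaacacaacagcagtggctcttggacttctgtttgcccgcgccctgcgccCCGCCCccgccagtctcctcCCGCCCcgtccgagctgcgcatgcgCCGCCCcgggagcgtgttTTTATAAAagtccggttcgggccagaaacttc
Ackr3: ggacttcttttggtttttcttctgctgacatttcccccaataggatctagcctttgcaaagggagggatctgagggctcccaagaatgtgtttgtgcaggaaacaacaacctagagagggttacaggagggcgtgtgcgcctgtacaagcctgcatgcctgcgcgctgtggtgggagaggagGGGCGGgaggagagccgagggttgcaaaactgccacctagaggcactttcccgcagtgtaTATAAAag
Cxcl12: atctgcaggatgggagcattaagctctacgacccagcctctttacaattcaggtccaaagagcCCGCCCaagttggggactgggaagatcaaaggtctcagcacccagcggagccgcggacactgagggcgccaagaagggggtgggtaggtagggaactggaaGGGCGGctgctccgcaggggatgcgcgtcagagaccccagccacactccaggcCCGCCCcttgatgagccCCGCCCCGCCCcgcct
Apln: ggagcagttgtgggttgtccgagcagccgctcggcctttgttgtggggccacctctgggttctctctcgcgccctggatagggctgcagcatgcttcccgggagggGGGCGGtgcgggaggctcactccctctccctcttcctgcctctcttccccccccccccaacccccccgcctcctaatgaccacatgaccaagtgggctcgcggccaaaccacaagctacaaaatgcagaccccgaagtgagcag
TATAAA occurred in both receptor windows, with 2 overlapping matches in Cxcr4, the last of which starts at -30, and 1 in Ackr3 at -8. It occurred in neither ligand window, and 12.4% of 32851 promoters held it within the same length. GGGCGG occurred 3 times in Cxcr4, 1 time in Ackr3, 5 times in Cxcl12 (with 1 overlapping pair) and 1 time in Apln, against 32.7% of promoters with at least 1 match. The windows were rich in G and C, at 61.2% for Cxcr4, 54.0% for Ackr3, 64.4% for Cxcl12 and 65.2% for Apln, where the median promoter had 52.4%. The hypoxia response core ACGTG, searched on both strands, had no match in these windows, beside 16.6% of promoters. The GATA factor motif AGATAA had none either, beside 9.99%. The basic helix-loop-helix motif CANNTG (an E box) had 3 matches in Apln and none in the other windows, beside 66.2% of promoters. Matches to letters were read as a description and not as sites of binding.

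Aplnr was higher in hematopoietic mesoderm than in endoderm, by 3.96-fold in the fitted model. Per kilobase of exon it was the member of highest mean level in each type, at 135 CPM per kb in hematopoietic mesoderm, 88.4 and 68.6 in YFP+ and YFP- cardiac mesoderm and 34.2 in endoderm. Aplnr (ENSMUSG00000044338.8) has 1 exon of 3699 bases in GRCm38, at chr2:85136225-85139923 on the plus strand. In hematopoietic mesoderm Aplnr was at 787, 561 and 155 CPM in replicates 1, 2 and 3. In YFP+ cardiac mesoderm Aplnr was at 419, 238 and 323 CPM, and in YFP- cardiac mesoderm at 258, 230 and 273 CPM. In endoderm Aplnr was lowest, at 146, 151 and 82.9 CPM. The endoderm libraries lay below all libraries of each other type, whereas the 3 mesodermal types overlapped, since hematopoietic replicate 3 was under every cardiac library and close to the highest endoderm library.

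The means of Aplnr were 501 ± 320 CPM (SD, n = 3) in hematopoietic mesoderm, 327 ± 90.7 CPM in YFP+ cardiac mesoderm, 254 ± 21.7 CPM in YFP- cardiac mesoderm and 127 ± 37.9 CPM in endoderm. Neighbours in this order overlapped, except that YFP- cardiac mesoderm and endoderm did not. Of the 5 members tested, Aplnr was the 1 called between endoderm and hematopoietic mesoderm (log2 fold change -1.98 ± 0.45 SE, edgeR quasi-likelihood test with Benjamini-Hochberg adjustment, adjusted p = 0.0262). In that comparison 5.65% of all 14170 genes tested were called. DESeq2 (adjusted p = 0.000157, 13.4% of genes called) and limma voom (adjusted p = 0.00393, 8.65% of genes) called Aplnr too. The call was lost in a fit of those types alone (adjusted p = 0.0698) and when endoderm replicate 1, 2 or 3 or hematopoietic replicate 1 was left out (edgeR adjusted p = 0.0848 to 0.122), with the log2 fold change between -2.10 and -1.50. Summed blood and endothelial markers were also lower in endoderm, at 47.1 to 73.7 CPM against 1660 to 2977 CPM in hematopoietic mesoderm. In YFP+ cardiac mesoderm these sums were 57.2, 472 and 133 CPM in replicates 1, 2 and 3, where Aplnr was at 419, 238 and 323 CPM. Erg, Hba-x and Hbb-bh1 were at 0 in every endoderm library. Hba-x was at 0 in every hematopoietic library too, and Hbb-bh1 was at 0 in hematopoietic replicate 3. The part of these markers in the Aplnr difference was not tested. In bulk samples, fewer cells of a type and less RNA per cell cannot be told apart.

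The comparisons of Aplnr between hematopoietic and cardiac mesoderm moved with single hematopoietic libraries. With all libraries, the log2 difference in Aplnr from hematopoietic mesoderm was -0.62 in YFP+ cardiac mesoderm (SE 0.43, edgeR adjusted p = 0.475) and -0.98 in YFP- cardiac mesoderm (SE 0.43, edgeR adjusted p = 0.267), and neither passed. Without hematopoietic replicate 3, the difference from YFP- cardiac mesoderm was -1.40 (edgeR adjusted p = 0.0260) and that from the mean of the 2 cardiac fractions -1.22 (edgeR adjusted p = 0.0150), and both were called, while that from YFP+ cardiac mesoderm was -1.04 (edgeR adjusted p = 0.0649) and was not. Without hematopoietic replicate 1, the library of highest Aplnr, the Aplnr differences were nearer 0, at -0.13 from YFP+ cardiac mesoderm, -0.49 from YFP- cardiac mesoderm and -0.31 from the cardiac mean, and none was called (edgeR adjusted p = 0.590 to 0.928). Replicate 3 had the departing marker sums given above. Their part in its Aplnr level was not tested.

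**Figure D1:**
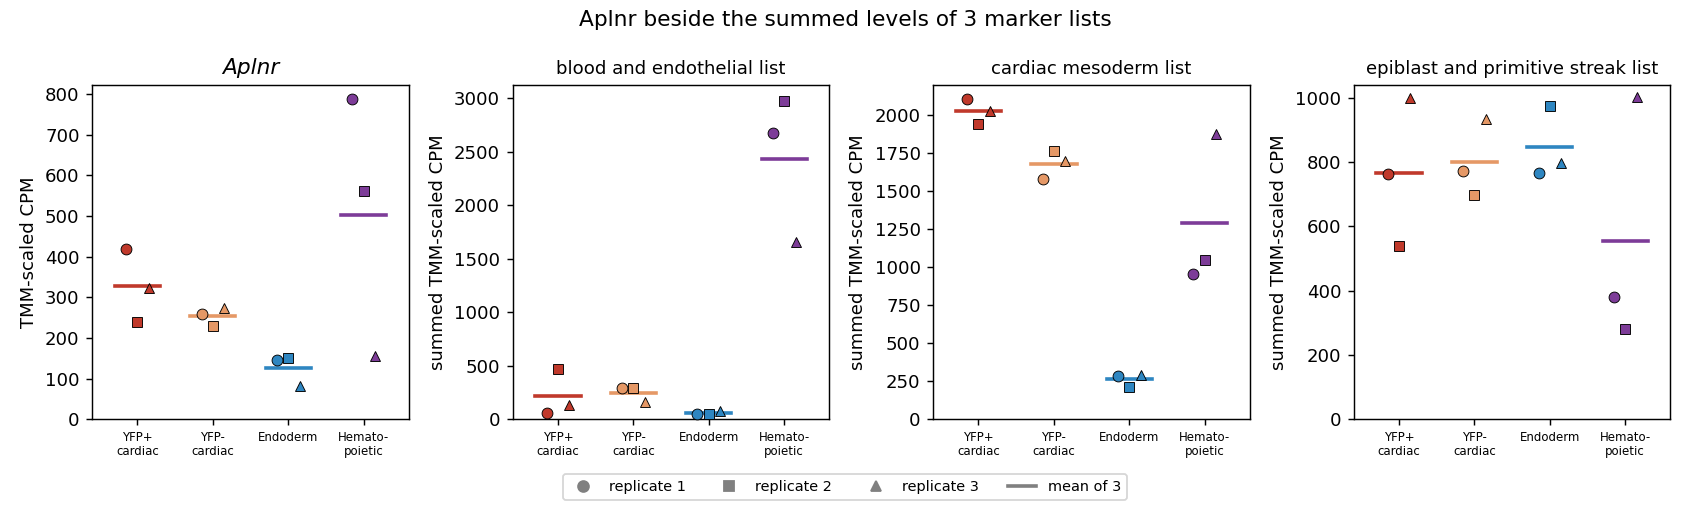
Aplnr and the summed levels of 3 marker lists in TMM-scaled CPM (vertical axes), for the 4 sorted types, with 1 symbol per library and a bar at the mean of 3. Hematopoietic mesoderm replicate 3 (triangle) has the lowest Aplnr level of its type, 155 CPM, and the lowest blood and endothelial sum, 1660 CPM, beside the highest cardiac mesoderm sum, 1875 CPM.

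Cxcr4 (ENSMUSG00000045382.6, chr1:128588199-128592293, minus strand, 2 exons in 1808 bases) was highest in cardiac mesoderm. Cxcr4 was at 103, 96.6 and 162 CPM in YFP+ cardiac mesoderm and at 59.3, 97.0 and 116 CPM in YFP- cardiac mesoderm. In endoderm Cxcr4 was at 38.7, 37.4 and 49.9 CPM, and in hematopoietic mesoderm at 62.7, 11.05 and 33.1 CPM. All 6 cardiac libraries lay above all 3 endoderm libraries, and the YFP+ libraries lay above the hematopoietic ones. The 2 cardiac fractions overlapped, and so did endoderm and hematopoietic mesoderm.

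The Cxcr4 means were 121 ± 36.4 CPM (SD, n = 3) in YFP+ cardiac mesoderm, 90.9 ± 29.0 CPM in YFP- cardiac mesoderm, 42.0 ± 6.85 CPM in endoderm and 35.6 ± 25.9 CPM in hematopoietic mesoderm. The mean of the 2 cardiac fractions exceeded endoderm by 1.32 on the log2 scale (SE 0.49, edgeR adjusted p = 0.180) and hematopoietic mesoderm by 1.56 (SE 0.50, edgeR adjusted p = 0.106), and neither passed. Against hematopoietic mesoderm, the cardiac mean was higher on 3 of 3 file dates. Against endoderm the same follows from the lack of overlap. DESeq2 called the difference from hematopoietic mesoderm (adjusted p = 0.0123) and not that from endoderm (adjusted p = 0.0797), whereas limma voom called the difference from endoderm (adjusted p = 0.00412) and not that from hematopoietic mesoderm (adjusted p = 0.203).

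Ackr3 (ENSMUSG00000044337.5, chr1:90203980-90216751, plus strand, 3 exons in 3348 bases) had its highest values in YFP+ cardiac mesoderm, at 31.7, 33.1 and 44.3 CPM. Ackr3 was at 27.4, 11.03 and 23.7 CPM in YFP- cardiac mesoderm and at 17.8, 16.4 and 22.7 CPM in endoderm. In hematopoietic mesoderm Ackr3 was at 6.24, 1.21 and 18.2 CPM. The YFP+ libraries lay above all other libraries, and the other types overlapped one another. No difference in Ackr3 passed the edgeR test or any of its alternatives. The largest, 2.09 on the log2 scale between YFP+ cardiac and hematopoietic mesoderm (SE 0.90), had an edgeR adjusted p of 0.222. Its mean in YFP+ cardiac mesoderm was 36.4 ± 6.88 CPM (SD, n = 3), against 20.7 ± 8.57 CPM in YFP- cardiac mesoderm, 19.0 ± 3.34 CPM in endoderm and 8.55 ± 8.73 CPM in hematopoietic mesoderm.

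The balance of the 2 CXCL12 receptors was read as the share of Ackr3 in the sum of Cxcr4 and Ackr3, after division by exon length. Cxcr4 held the larger part in every library. The share of Ackr3 was 14.3%, 15.6% and 12.8% in YFP+ cardiac mesoderm, and 19.9%, 19.1% and 19.8% in endoderm. It spread more widely in YFP- cardiac mesoderm, at 20.0%, 5.78% and 9.90%, and in hematopoietic mesoderm, at 5.10%, 5.58% and 22.9%. The YFP+ and endoderm libraries did not overlap, with a difference of -5.34 percentage points (exact two-sided permutation test, p = 0.1, adjusted over 6 pairs p = 0.6), and p = 0.1 is the smallest that 3 against 3 libraries allow. The other 5 pairs gave exact permutation p-values of 0.4 to 0.8.

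**Figure D2:**
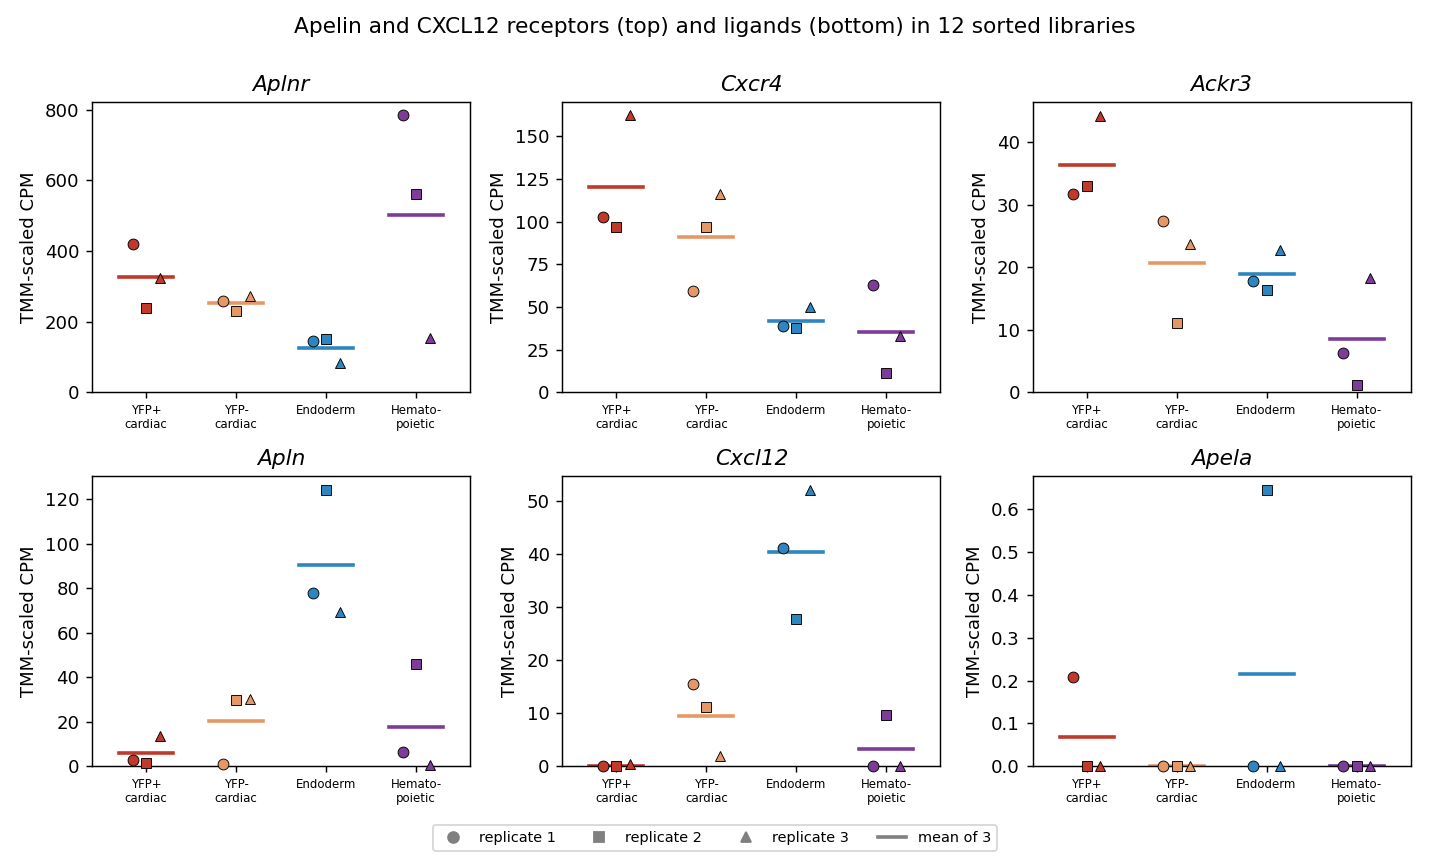
Levels of the 6 members in TMM-scaled CPM (vertical axes, each on its own scale) in the 4 sorted types, with 1 symbol per library and a bar at the mean of 3. The receptors Cxcr4 and Ackr3 have their highest means in YFP+ cardiac mesoderm, 121 and 36.4 CPM, and the ligands Apln and Cxcl12 in endoderm, 90.4 and 40.4 CPM.

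The ligand Apln (ENSMUSG00000037010.7, chrX:48025146-48034853, minus strand, exon length 3149 bases) was highest in endoderm, at 77.7, 124 and 69.3 CPM. In YFP+ cardiac mesoderm Apln was at 2.90, 1.45 and 13.6 CPM. The endoderm marker sum was 90.6, 70.8 and 198 CPM in the same libraries, and its part in their Apln levels was not tested. In YFP- cardiac mesoderm Apln was at 0.835, 29.7 and 30.0 CPM, and in hematopoietic mesoderm at 6.48, 45.9 and 0.628 CPM. The lowest endoderm library lay above all 9 mesodermal libraries. Within each mesodermal type the libraries spread widely: the 2 highest YFP- libraries were close together and the third was near the floor of 3 counts, and hematopoietic replicate 2 held most of that type's signal.

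Apln averaged 90.4 ± 29.5 CPM (SD, n = 3) in endoderm, 20.2 ± 16.8 CPM in YFP- cardiac mesoderm, 17.7 ± 24.6 CPM in hematopoietic mesoderm and 6.001 ± 6.66 CPM in YFP+ cardiac mesoderm. The difference of endoderm from the mean of the cardiac fractions did not pass (log2 fold change of cardiac minus endoderm -3.03 ± 1.09 SE, edgeR adjusted p = 0.165). DESeq2 (adjusted p = 0.0435) and limma voom (adjusted p = 0.0143) called it. The difference between endoderm and hematopoietic mesoderm, 2.35 ± 1.36 SE on the log2 scale, did not pass either (edgeR adjusted p = 0.343).

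Apela (ENSMUSG00000079042.3, chr8:65028417-65037336, minus strand), the second Aplnr ligand, had 6 counts in all 12 libraries together. Of these, 5 were in endoderm replicate 2 and 1 in YFP+ cardiac mesoderm replicate 1. The other 10 libraries had 0, which allows up to 0.380 to 0.671 CPM before TMM scaling. Apela did not pass the filter on low counts and was not tested, so that at this depth no order of its levels could be read. Its share in the sum of Apela and Apln would rest on the same 6 counts and is not compared. The annotation places Gm45886 on the same strand over 297 bases of Apela exon, and that gene was not among those counted.

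The chemokine ligand Cxcl12 (ENSMUSG00000061353.5, chr6:117168535-117181367, plus strand, exon length 8176 bases) was also highest in endoderm, at 41.2, 27.9 and 52.1 CPM. In YFP+ cardiac mesoderm Cxcl12 had 2 counts in all, with 0, 0 and 0.369 CPM in the 3 libraries. In YFP- cardiac mesoderm Cxcl12 was at 15.5, 11.2 and 2.02 CPM, and in hematopoietic mesoderm at 0, 9.67 and 0 CPM. The endoderm libraries lay above all mesodermal libraries, and the YFP- libraries lay above the YFP+ libraries. Hematopoietic replicate 2, the library with the most Apln of its type, held all 56 Cxcl12 counts found there.

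Because YFP+ cardiac mesoderm had 2 counts of Cxcl12, its contrasts are given as ratios of summed counts with exact 95% intervals, which cover counting error only. Cxcl12 was 321 times as abundant in endoderm (88.5 to 2651) and 73.3 times in YFP- cardiac mesoderm (20.0 to 610) as in YFP+ cardiac mesoderm. No ratio is given for hematopoietic mesoderm, whose libraries other than replicate 2 were at 0. The fitted Cxcl12 difference of YFP+ cardiac minus hematopoietic mesoderm changed sign without that library, to 2.84 on the log2 scale (edgeR adjusted p = 0.450). The edgeR adjusted p was 0.0913 against endoderm, 0.626 against YFP- cardiac mesoderm and 0.232 against hematopoietic mesoderm, so none passed. The unadjusted edgeR p against YFP- cardiac mesoderm was 0.0120. DESeq2 and limma voom called the difference from endoderm (adjusted p = 0.000322 and 0.0144) and not that from YFP- cardiac mesoderm (adjusted p = 0.0691 and 0.745). Without hematopoietic replicate 2, where that type's counts lay, the difference between endoderm and hematopoietic mesoderm was called (edgeR adjusted p = 0.0197, against 0.241 with it).

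The libraries in which both ligands were highest also held the most visceral endoderm marker RNA. Across the 3 endoderm replicates, that sum was 5872, 2167 and 3391 CPM, so that Apln was highest in the replicate with the lowest sum and Cxcl12 in the replicate with the middle one. The share of visceral endoderm RNA in the ligand levels was not tested. The endoderm list itself, with all 10 markers counted, summed to 2237, 1886 and 1794 CPM in the same libraries, against 45.2 to 279 CPM elsewhere.

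Levels of ligand and receptor were set side by side per kilobase of exon, a comparison chosen after the values were seen and not tested. Apln reached 62.6% to 98.2% of the Aplnr level in endoderm. In mesoderm the same percentage was 0.717% to 4.96% for YFP+ cardiac, 0.380% to 15.2% for YFP- cardiac and 0.476% to 9.61% for hematopoietic libraries. Cxcl12 reached 16.5% to 23.6% of the Cxcr4 level in endoderm. For Cxcl12 in mesoderm it was 0% to 0.0502% in YFP+ cardiac, 0.384% to 5.79% in YFP- cardiac and 0% to 19.3% in hematopoietic libraries. In every library each receptor was above its ligand, and endoderm libraries held the highest percentages for Apln. For Cxcl12, hematopoietic replicate 2 overlapped the endoderm range.

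**Figure D3:**
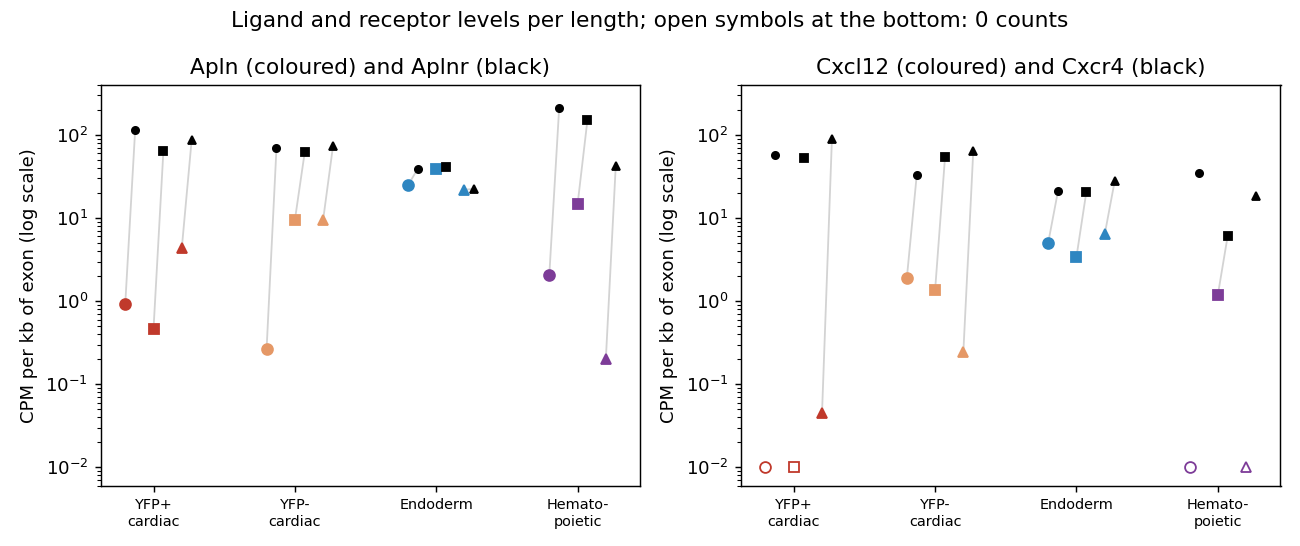
Levels per kilobase of exon (log axis, CPM per kb) of Apln beside Aplnr and of Cxcl12 beside Cxcr4 in each library of the 4 types, with ligands in colour, receptors in black and ligands at 0 counts as open symbols at the bottom. Apln lies closest to Aplnr in the endoderm libraries, at 62.6% to 98.2%, whereas for Cxcl12 the endoderm range of 16.5% to 23.6% takes in hematopoietic replicate 2, at 19.3%.

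The comparison of YFP+ with YFP- cardiac mesoderm contrasts cardiac cells that carry the Foxa2 lineage label with those that lack it. None of the 5 members tested was called, and 0% of all genes were, by edgeR (1 member, Cxcl12, had an unadjusted p under 0.05). DESeq2 and limma voom called none of the 5 either, where they called 0.812% and 0% of all genes. Libraries did not overlap for Cxcl12, lower in YFP+ cells, or for Ackr3, higher in YFP+ cells. These are 2 of 5 members, where 12.1% of all genes did not overlap. The difference in Aplnr was 0.37 ± 0.43 SE, in Cxcr4 0.41 ± 0.53 SE, in Ackr3 0.81 ± 0.86 SE and in Apln -1.75 ± 1.34 SE on the log2 scale. The unadjusted edgeR p-values were 0.412, 0.455, 0.365 and 0.216 in that order.

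Against endoderm, YFP+ cardiac mesoderm had non-overlapping libraries for all 5 tested members, higher for the receptors Aplnr, Cxcr4 and Ackr3 and lower for the ligands Apln and Cxcl12. The libraries of 30.3% of all genes did not overlap in that comparison. None of the 5 was called by edgeR, which called 1.54% of genes, although 4 had an unadjusted p under 0.05. DESeq2 called 3 (Aplnr, Apln and Cxcl12) where it called 6.51% of genes, limma voom called 3 (Aplnr, Cxcr4 and Cxcl12) where it called 7.97%, and a fit of these 2 types alone called 4, all but Ackr3, where it called 8.28%. The fitted log2 differences were 1.37 ± 0.44 SE for Aplnr, 1.52 ± 0.54 SE for Cxcr4, 0.94 ± 0.87 SE for Ackr3 and -3.91 ± 1.46 SE for Apln.

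YFP- cardiac mesoderm and endoderm did not overlap for 4 of 5 members, all but Ackr3, beside 29.4% of all genes. None was called by edgeR (1.31% of genes), and 1 had an unadjusted p under 0.05. limma voom called Aplnr (adjusted p = 0.0428) and Cxcr4 (adjusted p = 0.0300), where it called 12.8% of genes, and DESeq2 called none, where it called 4.27%. The comparisons with endoderm share the 3 endoderm libraries. For the mean of the cardiac fractions against endoderm, edgeR called 0 of 5 members where it called 4.52% of genes, with adjusted p-values of 0.0709 for Cxcl12, 0.128 for Aplnr, 0.165 for Apln, 0.180 for Cxcr4 and 0.911 for Ackr3, and 4 of these had an unadjusted p under 0.05. DESeq2 called 3 (6.47% of genes) and limma voom 4 (17.7% of genes), in each case without Ackr3. Libraries did not overlap for 4 of 5 members, all but Ackr3, beside 14.9% of genes.

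Against hematopoietic mesoderm, YFP+ cardiac mesoderm did not overlap for Cxcr4 and Ackr3, both higher in cardiac cells, beside 14.0% of all genes. edgeR called 0 of 5 where it called 1.79% of genes, and 3 had an unadjusted p under 0.05. DESeq2 called Cxcr4 (adjusted p = 0.0161) where it called 10.6% of genes, and limma voom called none, where it called 0.127%. YFP- cardiac mesoderm overlapped hematopoietic mesoderm in every member, beside 18.6% of genes without overlap, and edgeR called none of the 5, of which 2 had an unadjusted p under 0.05, where it called 0.593% of genes. DESeq2 (7.63% of genes) and limma voom (0.67% of genes) called none there. The mean of the cardiac fractions gave 0 calls among members in edgeR (2.58% of genes), with an unadjusted p under 0.05 for 2 and overlapping libraries for every member, beside 7.69% of genes without overlap. DESeq2 called Cxcr4 there (11.5% of genes) and limma voom none (1.17% of genes). Between endoderm and hematopoietic mesoderm, libraries did not overlap for Aplnr, Apln and Cxcl12, which is 3 of 5 members beside 34.3% of all genes.

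A test of any difference among the 4 types called 0 of 5 members, where it called 6.03% of genes. The edgeR adjusted p was 0.0675 for Aplnr, 0.107 for Cxcl12, 0.122 for Cxcr4, 0.258 for Apln and 0.466 for Ackr3, and 3 had an unadjusted p under 0.05. Aplnr, Cxcr4 and Cxcl12 were called by DESeq2 (13.6% of genes) and by limma voom (7.74% of genes). A single hematopoietic library decided several of these values. Leaving out replicate 1 gave a call for Cxcr4 (edgeR adjusted p = 0.0472), replicate 2 for Cxcl12 (edgeR adjusted p = 0.0124) and replicate 3 for Aplnr (edgeR adjusted p = 0.00166).

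**Figure D4:**
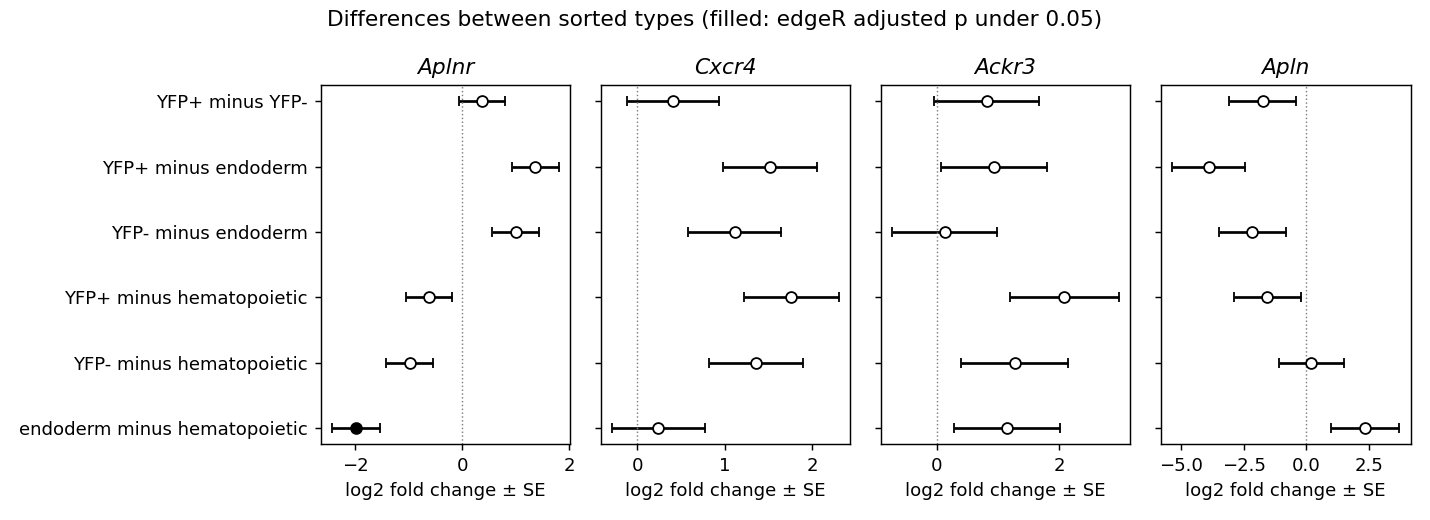
Fitted log2 fold changes with standard errors (horizontal axes, each on its own scale) for the 6 pairs of types in Aplnr, Cxcr4, Ackr3 and Apln, with filled points for an edgeR adjusted p under 0.05. Aplnr between endoderm and hematopoietic mesoderm, at -1.98 ± 0.45, is the one filled point, and Cxcl12 and Apela are not drawn because of their low counts.

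Genes that act with these receptors were read from 4 lists. The first held 23 G protein and cell motility effectors, which carry the signal from the receptor to the actin skeleton, and 19 of them were tested. Against the mean of the cardiac fractions, 3 were higher in endoderm (Gnai2, Pik3cb and Elmo1) and none lower, where edgeR called 4.52% of genes. The list's median log2 difference of cardiac minus endoderm was 0.17, beside -0.02 over all genes. Gnai2, an inhibitory G protein subunit of the kind both receptors use, was at 212 ± 5.90 CPM (SD, n = 3) in endoderm and 124 ± 27.0 CPM over the 6 cardiac libraries (edgeR adjusted p = 0.0463). Pik3cb, a catalytic subunit of phosphoinositide 3-kinase, was at 103 ± 8.27 and 19.3 ± 7.78 CPM in the same groups (edgeR adjusted p = 0.0263). Each of these calls was lost in 8 of 9 fits that left out 1 library, Gnai2 also with no expression filter and Pik3cb also with the replicate block, with edgeR adjusted p up to 0.164 and 0.119.

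Between endoderm and hematopoietic mesoderm, 2 of the 19 effectors were called, both lower in endoderm, where 5.65% of genes were called. Ptk2, the focal adhesion kinase, was at 145 ± 28.8 CPM (SD, n = 3) in endoderm and 272 ± 37.9 CPM in hematopoietic mesoderm (edgeR adjusted p = 0.0283). Cdc42, a small GTPase of cell polarity and protrusion, was at 262 ± 11.3 and 379 ± 29.6 CPM (edgeR adjusted p = 0.0429). The call for Ptk2 was lost in 4 of 6 fits without 1 library and with no scaling, and that for Cdc42 in 5 of 6 and in 5 of 8 other alternatives, with adjusted p up to 0.139 and 0.181. The median of the list was -0.25, beside 0.07 over all genes.

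The list of 18 genes that desensitize receptors or brake G proteins gave more calls. Of its 15 tested genes, 4 were called between endoderm and hematopoietic mesoderm, where 5.65% of all genes were called. Of these, 2 were higher and 2 lower in endoderm, and the list's median was 0.66 beside 0.07 over all genes. Between the cardiac mean and endoderm 3 were called, beside 4.52% of all genes (2 higher and 1 lower in cardiac mesoderm, median -0.08 beside -0.02). Between YFP+ cardiac mesoderm and endoderm 2 were called, beside 1.54% of all genes. Rgs5, which speeds the shut-off of inhibitory G proteins, was at 3.17, 6.06 and 12.9 CPM in endoderm. Its 9 mesodermal libraries held 64.9 to 234 CPM and did not overlap endoderm. Rgs5 was higher than in endoderm by 3.84 ± 0.58 SE on the log2 scale in YFP+ cardiac mesoderm (edgeR adjusted p = 0.00479) and by 4.29 ± 0.60 SE in YFP- cardiac mesoderm (edgeR adjusted p = 0.00293), while endoderm minus hematopoietic mesoderm was -4.25 ± 0.60 SE (edgeR adjusted p = 0.00174). All 3 calls held in every alternative run.

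Arrb1, the arrestin that binds activated receptors and ends their G protein signal, was at 341, 293 and 317 CPM in YFP+ cardiac mesoderm and at 96.1, 113 and 113 CPM in endoderm. It was at 158, 213 and 298 CPM in YFP- cardiac mesoderm and at 274, 162 and 243 CPM in hematopoietic mesoderm. The difference of YFP+ cardiac mesoderm from endoderm was 1.56 ± 0.25 SE on the log2 scale (edgeR adjusted p = 0.00735), with no overlap. That call was lost without endoderm replicate 1 (adjusted p = 0.0659). Endoderm minus hematopoietic mesoderm was -1.07 ± 0.25 SE (edgeR adjusted p = 0.0297), a call lost in 5 of 6 fits without 1 library and in 2 of 8 other alternatives. Rgs16, another G protein brake, was at 15.9, 7.87 and 11.5 CPM in endoderm and had 0 counts in all hematopoietic libraries, which makes it at least 18.9-fold higher in endoderm at a floor of 3 counts per library (edgeR adjusted p = 0.0366). The call was lost in each of 6 fits without 1 library and with the replicate block. Rgs2 had 2 counts in hematopoietic mesoderm, and its ratio of endoderm to that type was 107, with an exact 95% counting interval of 29.3 to 885 (edgeR adjusted p = 0.0459). That call too was lost in each of 6 fits without 1 library, and with limma voom.

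The ligand handling list held 14 genes that cut, degrade or bind these peptides and chemokines. Klkb1 was not analysed here, and 12 of the others were tested. Pcsk5, a proprotein convertase of the furin family, was at 4.91, 2.97 and 8.53 CPM in endoderm. Its levels were 325, 264 and 202 CPM in YFP+ cardiac mesoderm, 207, 176 and 190 CPM in YFP- cardiac mesoderm and 76.8, 73.0 and 189 CPM in hematopoietic mesoderm. All mesodermal libraries lay above endoderm, by 5.58 ± 0.50 SE on the log2 scale in YFP+ cardiac mesoderm (edgeR adjusted p = 0.000129) and 5.12 ± 0.49 SE in YFP- cardiac mesoderm (edgeR adjusted p = 0.000135), with -4.36 ± 0.48 SE for endoderm minus hematopoietic mesoderm (edgeR adjusted p = 0.000360). These calls held in every alternative run.

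Dpp4, a protease that clips and inactivates CXCL12, was at 185, 50.2 and 70.1 CPM in endoderm and at 0, 0.140 and 0.289 CPM in YFP- cardiac mesoderm. Summed counts gave a ratio of 639 with an exact 95% counting interval of 218 to 3102 (edgeR adjusted p = 0.0233), and the call was lost in each of 6 fits without 1 library and with the replicate block. In the libraries where its substrate Cxcl12 was highest, Dpp4 was also high. Hspg2, the heparan sulfate proteoglycan perlecan, was at 551, 548 and 259 CPM in hematopoietic mesoderm and at 128, 166 and 120 CPM in endoderm. The difference of endoderm minus hematopoietic mesoderm was -1.71 ± 0.28 SE (edgeR adjusted p = 0.00482), and held in every alternative run. Within hematopoietic mesoderm, Hspg2 was lowest in replicate 3, as Aplnr was. Of the 12 genes, 3 were called between the cardiac mean and endoderm (2 higher, 1 lower in cardiac mesoderm), where edgeR called 4.52% of all genes. The list's median of 0.57, or 0.29 with the gene at 0 counts on one side set to its bound, stood beside -0.02 over all genes. Between endoderm and hematopoietic mesoderm 2 were called, both lower in endoderm, where edgeR called 5.65% of all genes.

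**Figure D5:**
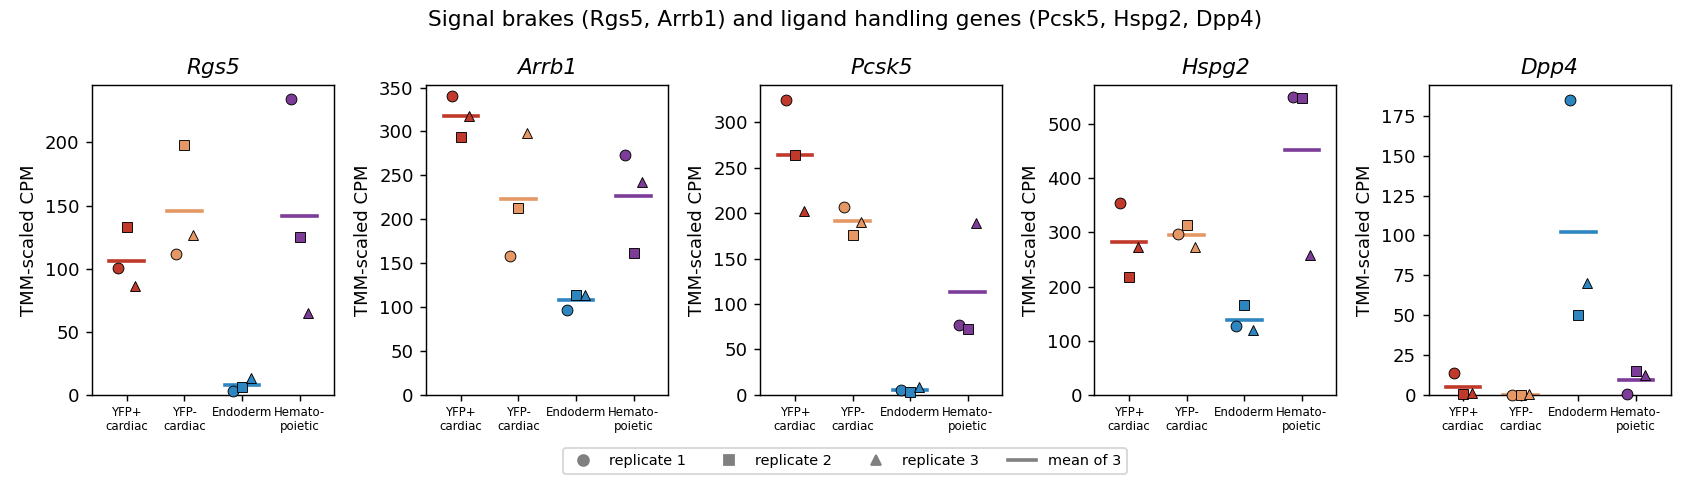
Levels of 5 genes that act with these signals, in TMM-scaled CPM (vertical axes, each on its own scale), with 1 symbol per library and a bar at the mean of 3. Rgs5 and Pcsk5 are lowest in the 3 endoderm libraries, at most 12.9 and 8.53 CPM, and Dpp4 is highest there, at 50.2 to 185 CPM.

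Other chemokine ligands and receptors were scarce. Of 40 genes in that list 20 had a count in any library, 7 were tested and none was called in any comparison. Between endoderm and hematopoietic mesoderm their median was 0.26, beside 0.07 over all genes. The 3 of highest mean over all 12 libraries were Ccr7, Cxcl16 and Cx3cl1, which does not hold within each type. Ccr7 averaged 19.5 ± 32.6 CPM (SD, n = 3) in hematopoietic mesoderm, and Cxcl16 averaged 10.6 ± 18.0 CPM in YFP+ cardiac mesoderm, both means smaller than their SD. Cx3cl1 averaged between 2.33 and 5.92 CPM in the 4 types.

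The genes whose pattern was most like a member's were ranked by Pearson's r of log2 CPM over the 12 libraries, among 10369 genes. The libraries share their types and depths, so r is a description. For Aplnr the first 2 were Kpna4 (r = 0.931) and Hspg2 (r = 0.925), followed by Parvb, Scoc and Hdgf. For Cxcr4 they were Stag1 (r = 0.953) and Dlc1 (r = 0.944), followed by Pcdh7, Ms4a4d and Fbxo31. A high r does not mean a difference of like size. Across the types Kpna4 averaged only 512 to 713 CPM and Stag1 489 to 582 CPM. Dlc1 averaged 433 ± 121 CPM in YFP+ and 385 ± 76.8 CPM in YFP- cardiac mesoderm, against 169 ± 13.6 CPM in endoderm and 163 ± 96.1 CPM in hematopoietic mesoderm (SD, n = 3).

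For Ackr3 the most alike gene was Eomes (r = 0.930), a T-box factor of the primitive streak, ahead of Emb, Nudt11, Adam19 and Dpysl5. Eomes averaged 426 ± 77.3 CPM (SD, n = 3) in YFP+ cardiac mesoderm, 366 ± 50.01 CPM in YFP- cardiac mesoderm, 287 ± 17.0 CPM in endoderm and 113 ± 130 CPM in hematopoietic mesoderm, the order of the Ackr3 means. The genes most like Apln were Dapk2, Zfp651, Crat, Tubb4a and Tgfa (r = 0.932 for Dapk2), and those most like Cxcl12 were Rusc1, Lrrc34, Ccdc114, Slc39a4 and Tmem8 (r = 0.937 for Rusc1). All 10 had their highest mean in endoderm. A shared order of types, here and for Eomes, largely follows from the choice by correlation and is no separate result.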

How the data were processed

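Whole-number counts of reads per gene, 1 file per library, were deposited by the authors, with 5 summary rows that were left out of totals and tests. The submitters' processing notes name STAR 2.5.0a, Picard, HTSeq 0.6.0, DESeq2 and the build mm10, without their roles. The annotation release and strand setting are not given in the sources used here. Groups came from the titles. In R 4.3.3, edgeR 4.0.16 (quasi-likelihood F test, TMM scaling, default expression filter) was run on the 12 libraries together, with a coefficient for each type and 8 residual degrees of freedom. P-values were two-sided, Benjamini-Hochberg adjusted over all 14170 genes tested and called under 0.05. Each SE of an edgeR log2 fold change was worked back from the F statistic, as its size over the square root of F. It therefore restates the test and is no separate measure of precision. The procedure was tested on simulated data. Alternatives were DESeq2 1.42.0, limma 3.58.1 voom with quality weights, other scalings (RLE or none), other filters (none, or a mean of at least 5 CPM), a block for the replicate number, the compared types on their own, and 11 of 12 libraries.

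Members and gene lists were chosen with earlier results of these data known. Named were all members, the sort markers, up to 4 called genes per list (10 CPM or more in the higher type, lowest p for any difference, otherwise the 3 of highest mean), and the 5 genes most alike a member. Elmo1 and the percentages of ligand to receptor were chosen after values were seen. Exon lengths, positions and overlaps came from GENCODE M21 (GRCm38). The files carry older identifier versions of Aplnr, Apela and Cxcl12, so that lengths may differ from the models counted. Of the 6 members 5 matched the RefSeq promoter table, and Aplnr did not. File names carry 3 dates, each shared by 1 library of every type, and what a date marks is not stated. Amplification without molecular identifiers can repeat a molecule, so floors and intervals cover counting error only.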

Additional observations from a re-analysis of the deposited data

How the results depend on the processing

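Of 319 fold changes of members under the 8 alternatives that keep all libraries, 289 kept their direction and side of the threshold, 27 gained a call, 1 lost it and 2 reversed. The reversals were under limma voom, Apln in YFP- cardiac minus hematopoietic mesoderm (-0.32) and Cxcl12 in the cardiac mean minus hematopoietic mesoderm (0.064), neither called. Counts of called members, 0 by edgeR except 1 for endoderm against hematopoietic mesoderm, moved as follows. DESeq2 gave 3 for YFP+ cardiac mesoderm against endoderm, 1 for YFP+ against hematopoietic mesoderm, 3 and 1 for the cardiac mean against endoderm and hematopoietic mesoderm, and 3 for any difference. limma voom gave 3 and 2 for YFP+ and YFP- cardiac mesoderm against endoderm, 4 for the cardiac mean against endoderm and 3 for any difference. Fitting only the types compared gave 4 and 1 for YFP+ and YFP- cardiac mesoderm against endoderm, 3 for the cardiac mean against endoderm and 0 for endoderm against hematopoietic mesoderm. With no expression filter, 2 were called for the cardiac mean against endoderm and 1 for any difference. The cause of these moves was not tested. Over all genes, calls moved by more than 1.5 times as well: for YFP+ cardiac mesoderm against endoderm 218 by edgeR, 922 by DESeq2, 1130 by voom and 1063 with those types alone, and for endoderm against hematopoietic mesoderm 800, 1903, 1225 and 1258. The Ackr3 share with no length scaling was 23.5%, 19.6% and 31.1% in YFP+ cardiac mesoderm, YFP- cardiac mesoderm and endoderm, since Ackr3 has the longer exons.

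Leaving out 1 library gave 0 to 2 called members for endoderm against hematopoietic mesoderm, and 0 to 1 for YFP- cardiac against hematopoietic mesoderm, for the cardiac mean against hematopoietic mesoderm and for any difference. The other comparisons stayed at 0. Fold changes of members that reversed when 1 library was left out were never called in that fit. Their ranges over these fits were -3.02 to 0.77, -0.37 to 2.52 and -1.41 to 1.64 for Apln in YFP+ cardiac, YFP- cardiac and the cardiac mean minus hematopoietic mesoderm, -0.18 to 0.93 for Cxcr4 in endoderm minus hematopoietic mesoderm, and -0.15 to 0.43 for Ackr3 in YFP- cardiac mesoderm minus endoderm. The fitted values of Cxcl12, which rest on counts near 0, ran from -7.33 to 2.84 and from -2.89 to 5.86 for YFP+ cardiac and the cardiac mean minus hematopoietic mesoderm. Hematopoietic replicate 2 decided the sign of Apln in YFP+ cardiac and the cardiac mean, of Cxcr4 and of Cxcl12 in these contrasts.

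With the replicate number as a block, members called stayed at 1 for endoderm against hematopoietic mesoderm (Aplnr, adjusted p = 0.0323) and at 0 elsewhere, while calls over all genes fell from 218 to 178, from 800 to 545 and, for any difference, from 854 to 467. Same-numbered libraries deviated together only weakly (correlations of -0.0177 to 0.0319 over 18 pairs, none over 0.1), and 10 of 12 libraries correlated best with their own number, a hint from the data and not from the design. Counts near 0 at this depth limit what can be read for Apela and, in YFP+ cardiac mesoderm, for Cxcl12.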
